A study of Mus musculus with 4 samples.

Results

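The Zbtb genes of mouse thymocytes were examined for their response to loss of Cxxc1. Members were the gene symbols made of Zbtb, a number and at most 1 lower-case letter, with Zbtb7b and Zbtb16 left out by that rule, which gave 38 of the 35976 symbols in the count files. RNA was sequenced in bulk from thymocytes sorted as CD24+, TCRb-, CD4+ and CD8a+, the double-positive (DP) stage at which both coreceptors are on the surface. Control mice were Cxxc1 +/+ with Lck-cre (2 libraries) and knockout (KO) mice were Cxxc1 F/F with the same transgene (2 libraries). All 4 libraries thus carried Cre recombinase, driven by the Lck promoter, which is active in T-lineage cells. The sources give no age, sex or strain and do not say whether each library came from its own mouse, so the p-values reflect the variation among these 4 libraries, part of which may be technical. In bulk RNA, fewer cells of a type and less RNA per cell cannot be told apart.

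Zbtb proteins join an N-terminal BTB domain, through which they pair and bind corepressors, to C-terminal zinc fingers that read DNA. Several set blood and lymphoid fates, and a few recognise methylated CpG. The product of Cxxc1 recognises CpG without methyl groups and recruits SETD1, a methyltransferase for lysine 4 of histone H3. The study's title places it on an axis with Bcl11b in thymocyte development, and the comparison asks which transcripts changed when it was deleted.

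Gene counts summed to 12150508 for control 1, the shallowest library, and to between 33544428 and 36243182 for the other 3. Levels are counts per 1000000 of the TMM-scaled library (CPM), where 3 counts stand for 0.0843 to 0.252 CPM. Cxxc1 itself was at 111 and 53.5 CPM in the controls against 35.7 and 39.4 CPM in the KO, a log2 fold change (KO over control) of -1.12 ± 0.34 (SE) that did not pass the test (adjusted p = 0.199 in edgeR's quasi-likelihood test). DESeq2 called it (adjusted p = 0.0337), and over the 11 alternatives its adjusted p ran from 0.000661 to 0.577. Its fold change was -0.50 without control replicate 1, the higher control, and -1.55, and called, without control replicate 2. Whether these counts include exons outside the deleted part is not given, so they do not measure the deletion. The DP markers Cd4, Cd8a and Rag1 stood at 142 CPM or more in every library, and Cd4, Cd8a and Dntt fell. The summed level of 9 DP markers was 10298 and 13600 CPM in the controls against 4518 and 7002 CPM in the KO libraries. Much of that sum was Rag1, at 4967 and 7055 CPM in the controls against 2997 and 4488 CPM in the KO, which was not called. Ptcra of that list lay the other way, at 13.5 and 4.27 CPM in the controls against 49.9 and 26.5 CPM in the KO. Cd24a and Rag2 overlapped between genotypes. Of markers of other cells, 5 B cell genes summed to 1.74 to 3.35 CPM in each library with Ms4a1 at 0 in 3 of them, and 9 myeloid and dendritic genes to 22.1 to 44.6 CPM, mostly Itgam. The 5 thymic epithelial genes summed to 5.13 and 7.82 CPM in controls and 11.9 and 15.1 CPM in the KO, where Epcam made up 11.6 and 15.1 CPM. The other 4 of that list, Foxn1, Psmb11, Krt5 and Krt8, lay the other way, at 0.0577 to 1.60 CPM in controls and 0 to 0.172 CPM in the KO. The 5 erythroid genes summed to 8.66 and 14.0 CPM in controls and to 33.0 and 23.8 CPM in the KO, and the globin genes Hba-a1, Hbb-bs and Hbb-bt were at 0 in both controls. The part of these cells in the results below was not tested.

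No Zbtb gene was called as changed in the KO. All 38 members passed the filter on low counts, and 0 were called at an adjusted p below 0.05 by edgeR's quasi-likelihood test, against 0.451% of the 20389 genes tested (0.27% higher and 0.181% lower). At an unadjusted p below 0.05 there was 1 member lower in the KO (Zbtb4) and 0 higher, where 6.91% and 6.97% of tested genes stood. DESeq2 also called 0 members, with 1 at an unadjusted p below 0.05. The median log2 fold change was -0.13 over the members and -0.04 over all tested genes, and 23 members had a fitted value below 0 (52.4% of tested genes did). Summed over the 38 genes, the level was 1870 and 2151 CPM in the controls against 1868 and 1829 CPM in the KO libraries. The sums of KO 1 and control 1 nearly coincided, and control 2 stood above the other 3 libraries.

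**Figure D1:**
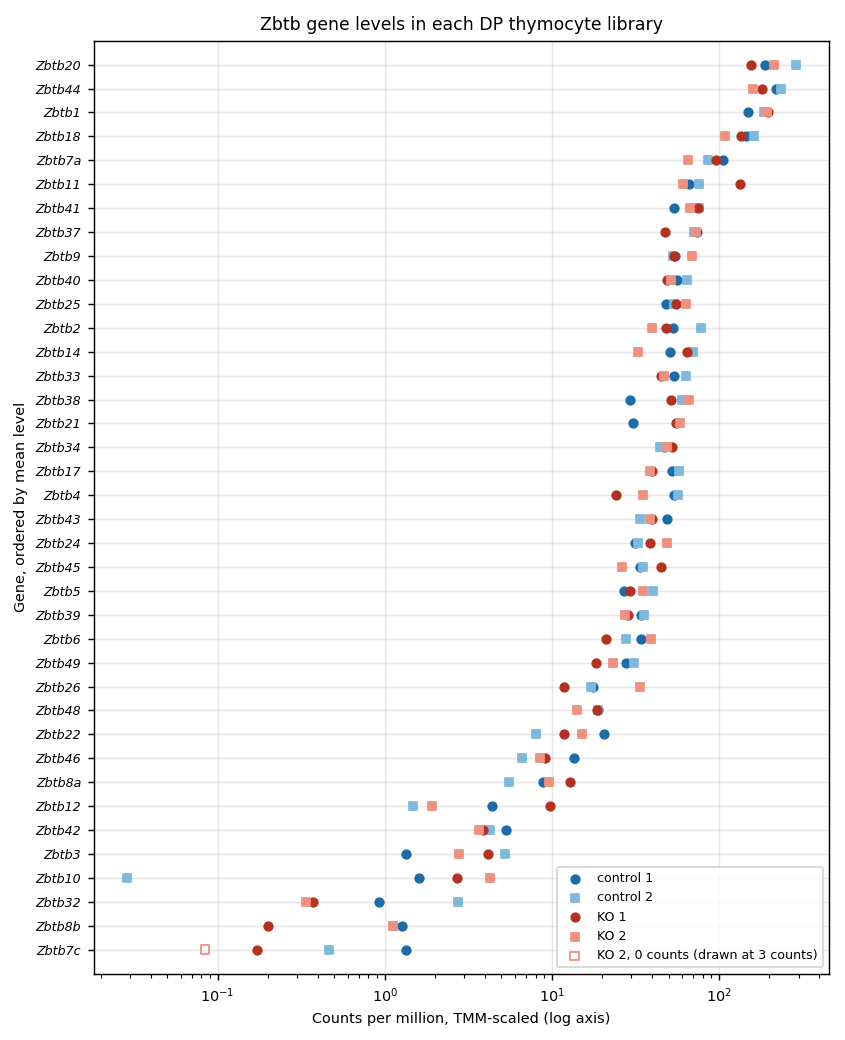
CPM (log axis) of each of the 38 Zbtb genes in each of the 4 libraries, with genes ordered by their mean over the libraries and the open square of Zbtb7c (0 counts in KO 2) drawn at 3 counts. Genes of 10 CPM and more have the libraries of both genotypes side by side, and the scatter widens among the 9 genes under 10 CPM.

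A call missed is not a change shown to be absent, so the intervals of the fold changes were read as well. The 95% interval lay within a 2-fold change in either direction for 17 members, against 23.4% of tested genes. All 17 were among the 29 members averaging at least 10 CPM, and 51.3% of tested genes at that level had such an interval. They were Zbtb1, Zbtb5, Zbtb6, Zbtb7a, Zbtb9, Zbtb18, Zbtb25, Zbtb33, Zbtb34, Zbtb37, Zbtb39, Zbtb40, Zbtb41, Zbtb43, Zbtb44, Zbtb45 and Zbtb48. For the other 21 members the interval reached past a 2-fold change. Among the 29, fitted log2 fold changes ran from -0.90 (Zbtb4) to 0.46 (Zbtb11), and their median size of 0.33 was close to the 0.30 of all tested genes at that level.

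**Figure D2:**
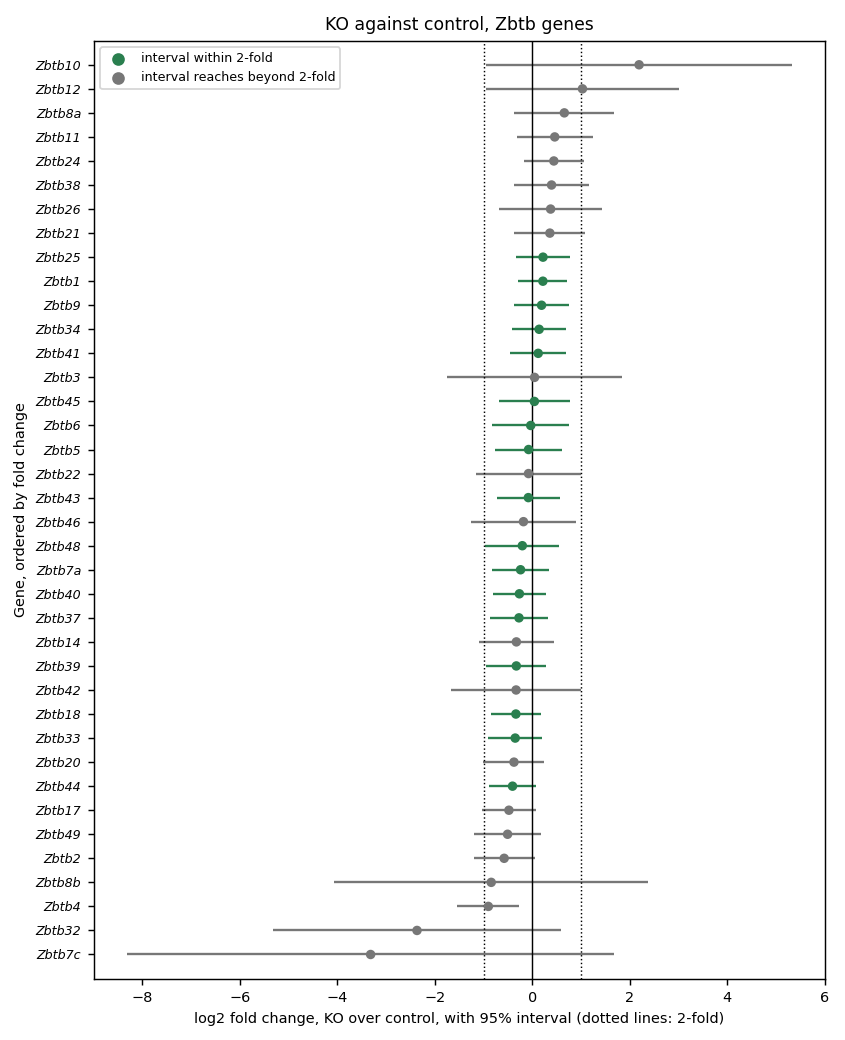
Log2 fold change (KO over control) of each Zbtb gene with its 95% interval, ordered by fold change, with dotted lines at 2-fold. Intervals in green (17 genes) stay within 2-fold, and the interval of Zbtb4, from -1.54 to -0.26, lies wholly below 0.

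The promoter of Zbtb4 is shown because this member had the smallest p, beside those of Zbtb2 and Zbtb17, whose KO libraries also lay below both controls, and of Zbtb24, whose KO libraries lay above both. These 4 were picked after their values were seen. Each is the 250 bases before the RefSeq start, 5′ to 3′ on the gene's strand (GRCm38.p6), with every CpG, the dinucleotide that CXXC domains bind when unmethylated, in capitals.
Zbtb4: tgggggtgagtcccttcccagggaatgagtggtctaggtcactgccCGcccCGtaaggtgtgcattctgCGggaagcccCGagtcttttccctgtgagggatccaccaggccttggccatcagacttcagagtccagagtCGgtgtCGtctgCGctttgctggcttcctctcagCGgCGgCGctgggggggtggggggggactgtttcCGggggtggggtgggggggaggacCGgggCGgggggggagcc
Zbtb2: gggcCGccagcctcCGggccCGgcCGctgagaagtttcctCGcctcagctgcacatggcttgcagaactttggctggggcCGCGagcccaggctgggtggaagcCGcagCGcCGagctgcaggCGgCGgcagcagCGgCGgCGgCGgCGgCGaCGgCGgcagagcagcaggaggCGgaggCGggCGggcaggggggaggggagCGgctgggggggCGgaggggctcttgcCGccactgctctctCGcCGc
Zbtb17: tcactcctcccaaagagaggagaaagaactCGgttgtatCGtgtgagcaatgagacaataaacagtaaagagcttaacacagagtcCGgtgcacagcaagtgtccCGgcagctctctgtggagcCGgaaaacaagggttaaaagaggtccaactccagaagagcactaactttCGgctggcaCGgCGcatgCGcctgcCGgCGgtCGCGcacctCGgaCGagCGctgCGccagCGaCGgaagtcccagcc
Zbtb24: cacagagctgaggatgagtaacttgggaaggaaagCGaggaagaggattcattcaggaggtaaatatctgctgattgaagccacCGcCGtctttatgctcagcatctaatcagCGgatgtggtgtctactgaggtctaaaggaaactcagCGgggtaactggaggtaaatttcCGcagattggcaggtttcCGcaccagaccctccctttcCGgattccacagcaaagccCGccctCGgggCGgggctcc
The stretches are chr11:69765662-69765911 (plus strand) for Zbtb4, chr10:4388109-4388358 (minus strand) for Zbtb2, chr4:141444423-141444672 (plus strand) for Zbtb17 and chr10:41450108-41450357 (plus strand) for Zbtb24. They hold 13, 28, 19 and 11 CpG in that order, so Zbtb24 had the fewest, 2 under Zbtb4. In the whole 300-base windows (250 before and 50 after the start), CpG-dense was defined as a CpG observed over expected ratio of at least 0.6 and at least 50% G or C. Of 34 members with a window in the RefSeq table, 29 (85.3%) had at least 1 CpG-dense window, against 56.0% of 14352 tested genes with a window. The 5 without one were Zbtb3, Zbtb8b, Zbtb20, Zbtb32 and Zbtb46. For Zbtb8b, Zbtb20, Zbtb32 and Zbtb46 the windows lay inside the gene span, so sequence at the outer start of these genes was not examined. That of Zbtb20, for instance, began at 43247034, while its span begins at 42875689. The median log2 fold change was -0.08 over the 29 and -0.38 over the 5, beside 0.04 and -0.19 over tested genes with and without a CpG-dense window. The -0.38 is the value of Zbtb20 alone, and Zbtb3, Zbtb8b and Zbtb32 had standard errors of 0.80, 1.43 and 1.31. These 5 genes are thus too few and too uncertain for a contrast with the 29. CG reads the same on both strands, and the letters do not show methylation or binding.

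Zbtb4 and its relatives Zbtb33 (Kaiso) and Zbtb38 bind methylated CpG through their zinc fingers. Zbtb4 (chromosome 11, 69765912 to 69784026) was at 54.0 and 56.8 CPM in the controls against 24.3 and 35.1 CPM in the KO libraries. The control values nearly coincided and both KO values were lower. The log2 fold change was -0.90 ± 0.28 (SE), with an adjusted p of 0.213 (0.0108 unadjusted) in edgeR's quasi-likelihood test. Its fold change was -0.61 without KO replicate 1, the lower of the KO libraries, and -1.17 without KO replicate 2. Zbtb33 was at 53.9 and 63.5 CPM in the controls against 45.3 and 46.8 CPM in the KO, a difference of -0.35 ± 0.25 whose interval (-0.90 to 0.20) stayed within 2-fold. Zbtb38 was at 29.5 and 59.8 CPM in the controls against 52.1 and 65.8 CPM in the KO (0.39 ± 0.34), with the controls further apart than the genotypes. The point values of these 3 genes therefore do not share a direction, and that of Zbtb38 was -0.0061 without control replicate 1.

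Zbtb1, Zbtb7a, Zbtb17, Zbtb20, Zbtb24, Zbtb32 and Zbtb46 have known roles in lymphoid or blood cells, and 0 of these 7 were called (0 at an unadjusted p below 0.05). Zbtb1, which lymphoid progenitors need to make T cells, was at 150.4 and 185 CPM in the controls against 196 and 194 CPM in the KO. Both KO values lay above both controls, but the difference of 0.22 ± 0.22 was no larger than its error. Zbtb7a (LRF), which holds back Notch-driven T cell fate in progenitors, was at 106 and 85.9 CPM in the controls against 96.6 and 65.7 CPM in the KO, with overlapping groups (-0.24 ± 0.26). Of 7 listed Notch-related genes, Il2ra, Notch3 and Dtx1 rose (log2 fold changes of 3.98, 2.04 and 2.53, adjusted p = 0.00616, 0.025 and 0.0408 in edgeR's test), 0 fell and 4 did not pass, where 0.27% of all tested genes rose. Of those 4, Notch1, Ptcra and Nrarp had log2 fold changes of 1.71, 2.13 and -1.15 (adjusted p = 0.107, 0.138 and 0.497 in edgeR's test). Hes1 was at 0 and 0.115 CPM in the controls against 16.8 and 3.03 CPM in the KO (adjusted p = 0.0514). DESeq2 called Notch1, Ptcra and Hes1, as did the fits without the filter and with the replicate number as a block. Without KO replicate 1 the fold change of Notch1 was 1.11, and without control replicate 1 that of Ptcra was 3.18.

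Zbtb17 (Miz-1), a partner through which Myc represses genes and a factor that early T and B cells need for interleukin-7 signalling, was at 52.2 and 57.7 CPM in the controls. Its KO values of 39.9 and 39.0 CPM were both lower and close to each other. The log2 fold change was -0.48 ± 0.25 (adjusted p = 0.438 in edgeR's test), with an interval from -1.04 to 0.08. Of 7 listed partners and targets, Myc rose from 21.9 and 13.0 CPM to 201 and 109 CPM (3.16 ± 0.38, adjusted p = 0.0156) while the partner of Myc, Max, was at 90.5 and 71.5 CPM in the controls against 100.02 and 95.8 CPM in the KO (0.27 ± 0.23). The cytokine-signalling inhibitor gene Socs1 and the cell-cycle inhibitor gene Cdkn1c had -1.03 ± 0.27 and -1.86 ± 0.68, and the ribosomal protein gene Rpl22 had 1.07 ± 0.25. These 3 had unadjusted p-values of 0.00362, 0.0233 and 0.00196 in edgeR's test and were not called. DESeq2 called Socs1 and Rpl22, and so did the fits without the filter and with the replicate number as a block. Without control replicate 1 both were called (-1.22 and 1.23), as was Rpl22 without KO replicate 2 (1.29). Cdkn1c was at -0.89 without control replicate 1 and at -2.43, and called, without control replicate 2.

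Zbtb24 is mutated in the syndrome of immunodeficiency, centromeric instability and facial anomalies (ICF), as are Dnmt3b, Cdca7 and Hells. It was at 31.6 and 32.9 CPM in the controls against 38.7 and 48.9 CPM in the KO, above both controls in both libraries (0.44 ± 0.27, adjusted p = 0.527 in edgeR's test). The 3 other genes also had positive fold changes and 0 were called. Dnmt3b, a de novo DNA methyltransferase gene, was at 8.32 and 5.28 CPM in the controls against 21.8 and 9.86 CPM in the KO (1.23 ± 0.50, adjusted p = 0.321). Hells, a chromatin remodeller gene, was at 184 and 137 CPM in the controls against 414 and 170.2 CPM in the KO (0.86 ± 0.38, adjusted p = 0.356), so KO 2 lay between the controls. Hells was called without the filter (0.89) and with the replicate number as a block (0.74). Its fold change was 0.14 without KO replicate 1 and 1.39, and called, without KO replicate 2. Without KO replicate 1 that of Dnmt3b was 0.59. Cdca7, which works with Hells, was at 296 and 233 CPM in the controls against 357 and 224 CPM in the KO (0.14 ± 0.28), and its fold change was -0.018 with control replicate 2 left out and -0.19 with KO replicate 1 left out. KO 1 held the highest level of each of these 3 genes.

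Zbtb20, a factor of plasma cells, liver and hippocampus, was at 189 and 289 CPM in the controls against 155 and 214 CPM in the KO, and the groups overlapped (-0.38 ± 0.28). Zbtb46 marks conventional dendritic cells and was at 13.5 and 6.64 CPM in the controls against 9.16 and 8.51 CPM in the KO (-0.18 ± 0.47). The dendritic cell genes Xcr1 and Clec9a stood at or below 1.85 CPM in all libraries, and Flt3 at 2.61 CPM or below. Clec9a, Flt3, Itgax and Siglech were higher in control 1 than in control 2, as Zbtb46 was, and Xcr1 was lower. The part of dendritic cells in the Zbtb46 level was not tested. Zbtb32, a repressor of T cell cytokine genes, was at 0.925 and 2.74 CPM in the controls against 0.373 and 0.337 CPM in the KO, from 11 and 95 counts against 13 and 12. Its log2 fold change of -2.37 ± 1.31 (adjusted p = 0.473 in edgeR's test) had an interval from -5.33 to 0.60, too wide to set a size.

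Of the most abundant members not yet described, Zbtb44 was at 219 and 235 CPM in the controls against 182 and 161 CPM in the KO. Both KO values were lower (-0.41 ± 0.22, adjusted p = 0.454 in edgeR's test), and the interval (-0.89 to 0.08) stayed within 2-fold. Zbtb18 (RP58), a repressor known from the developing cortex, had 146 and 163 CPM in the controls against 135 and 109 CPM in the KO (-0.34 ± 0.23). Zbtb40 had 56.4 and 64.5 CPM against 49.0 and 51.7 CPM (-0.26 ± 0.24), again with both KO libraries lower. In Zbtb11, KO 1 stood apart, with 134 CPM against 61.0 CPM in KO 2 and 66.3 and 75.6 CPM in the controls. Its fold change of 0.46 ± 0.35 was -0.17 without KO replicate 1. Zbtb37 showed the mirror image, with 47.3 CPM in KO 1 and 71.0 to 74.2 CPM in the other 3 libraries (-0.27 ± 0.27). Zbtb41 was at 53.8 and 76.1 CPM in the controls against 74.7 and 66.9 CPM in the KO (0.12 ± 0.25). Zbtb9 was at 54.4 and 53.0 CPM in the controls against 53.8 and 68.6 CPM in the KO (0.19 ± 0.25), but 84.4% of its exon bases are shared with other GENCODE genes, among them Ggnbp1 on the same strand, so its reads cannot be told apart from theirs.

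The remaining 14 members with a mean of at least 10 CPM had log2 fold changes from -0.58 (Zbtb2) to 0.38 (Zbtb26). Below both controls in both KO libraries were Zbtb2 (-0.58 ± 0.28), Zbtb49 (-0.51 ± 0.31), Zbtb39 (-0.33 ± 0.27) and the telomere-binding factor gene Zbtb48 (-0.20 ± 0.34). Above both were Zbtb25 (0.22 ± 0.24) and Zbtb34 (0.14 ± 0.25). The groups overlapped for Zbtb14 (-0.33 ± 0.34), Zbtb43 (-0.08 ± 0.28), Zbtb22 (-0.08 ± 0.48), Zbtb5 (-0.08 ± 0.31), Zbtb6 (-0.03 ± 0.35), Zbtb45 (0.04 ± 0.32), Zbtb21 (0.36 ± 0.32) and Zbtb26 (0.38 ± 0.47). Over all 38 members, both KO libraries lay below both controls in 14, where 24.0% of tested genes did, and above both in 6, where 22.8% did.

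**Figure D3:**
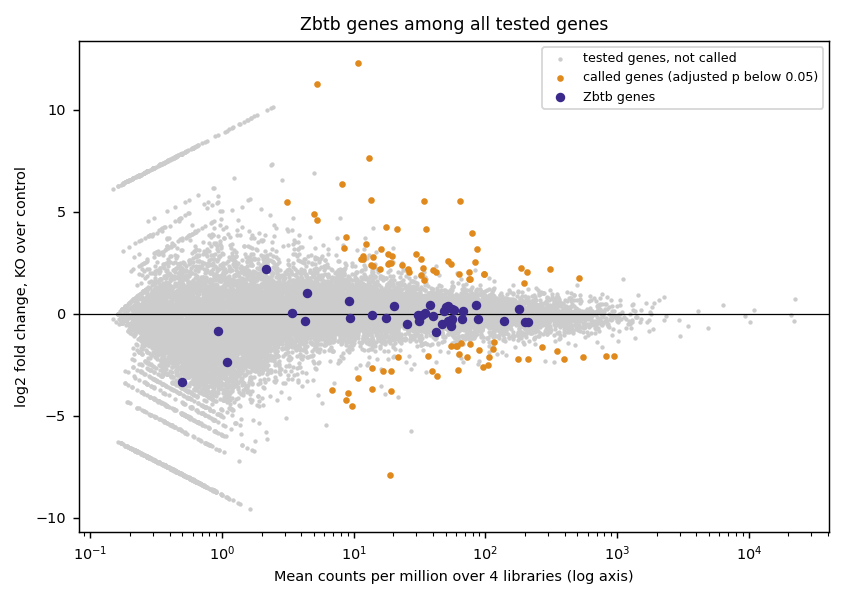
Log2 fold change (KO over control) against mean CPM over the 4 libraries (log axis) for all 20389 tested genes, with the 92 called genes in orange and the 38 Zbtb genes in purple. The Zbtb genes lie in the body of the uncalled genes at every level, and 3 of the 4 with a fitted change of at least 2-fold are below 3 CPM.

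Members under 10 CPM had a median standard error of 0.87 on the log2 scale, against 0.28 for the others, and held all 4 members with a fitted change of at least 2-fold, a size that 30.8% of tested genes and 8.35% of those at 10 CPM or more reached. Zbtb10 was at 1.60 and 0.0288 CPM in the controls, from 19 counts and 1 count, and at 2.73 and 4.27 CPM in the KO, from 95 and 152 counts. Both KO values were higher, but the controls were far apart (2.19 ± 1.39, adjusted p = 0.546 in edgeR's test). Without control replicate 1 its fold change was 6.77 with an adjusted p of 0.00305 (0.172 to 0.852 over its other alternatives), so the call rests on the library with 1 count. Zbtb7c was at 1.35 and 0.462 CPM in the controls, from 16 counts each, and at 0.172 and 0 CPM in the KO, from 6 and 0 counts. Its interval ran from -8.31 to 1.68. Zbtb12, at 4.37 and 1.47 CPM against 9.82 and 1.91 CPM, had 1.03 ± 0.87, and only KO 1 was above both controls. Zbtb8a had 0.66 ± 0.45, Zbtb42 -0.33 ± 0.59, Zbtb3 0.05 ± 0.80 and Zbtb8b -0.84 ± 1.43, with adjusted p-values from 0.588 to 0.988.

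Divided by exon length (union of GENCODE vM21 exons, which may not be the annotation counted), levels could be ordered between genes. Zbtb18 and Zbtb44 led in the controls at 25.2 and 24.3 CPM per kb, and their control libraries (23.8 and 26.6, 23.4 and 25.1) overlapped. Zbtb25 (16.3), Zbtb9 (15.4), Zbtb17 (14.2), Zbtb7a (14.1), Zbtb1 (13.8) and Zbtb14 (13.0) followed. The control libraries of Zbtb25 and Zbtb9 overlapped, as did those of the last 4 genes. Zbtb9 cannot be placed firmly in this order, since 84.4% of its exon bases are shared with other genes. Zbtb20 had 7.78 CPM per kb, since its exons span 30730 bases, and so ranked far lower per length than by CPM. At the low end stood Zbtb32 (0.778), Zbtb7c (0.191), Zbtb8b (0.184) and Zbtb10 (0.110). In the KO the leading genes per length were Zbtb18 (20.0), Zbtb25 (19.0) and Zbtb44 (18.3).

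The spread between replicate libraries was often as large as the difference between genotypes. In 24 of 38 members the larger of the within-genotype differences exceeded the fitted change, as it did in 70.1% of tested genes. Of the 29 members with at least 10 CPM, 12 had a fitted change above both within-genotype differences, against 34.7% of tested genes at that level. They were Zbtb2, Zbtb4, Zbtb17, Zbtb18, Zbtb24, Zbtb25, Zbtb33, Zbtb34, Zbtb39, Zbtb40, Zbtb44 and Zbtb49. Of these, Zbtb24, Zbtb25 and Zbtb34 had higher levels in the KO and the other 9 lower ones. The widest replicate gap at this level was that of Zbtb26, at 11.9 CPM in KO 1 and 33.6 CPM in KO 2.

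**Figure D4:**
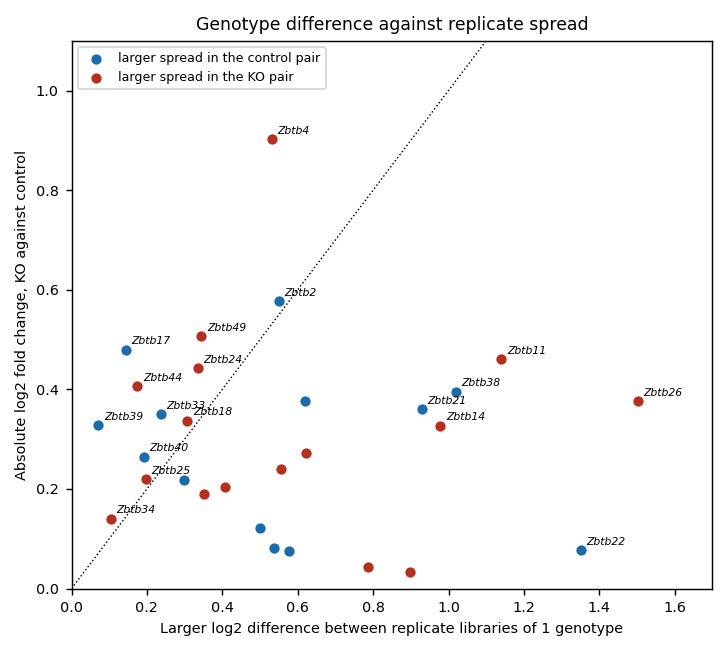
Absolute log2 fold change between genotypes against the larger log2 difference between replicate libraries of 1 genotype, for the 29 Zbtb genes with at least 10 CPM, with a dotted line where both are equal. The 12 genes above the line include Zbtb4, and Zbtb26, Zbtb22 and Zbtb11 lie farthest to the right.

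Some members are neighbours in the genome. Zbtb25 (chromosome 12, 76348900 to 76370214) and Zbtb1 (76370051 to 76396955) lie head to head and overlap by 164 bases, and both had a log2 fold change of 0.22. That overlap is between RefSeq spans, and neither gene shares exon bases with another gene in GENCODE vM21. The annotation and strand setting of the counting are not given, so whether any reads came from the shared bases is not known. Zbtb6 and Zbtb26, which are 1248 bases apart on chromosome 2, had -0.03 and 0.38, and both were higher in KO 2 than in KO 1 (39.4 against 21.2 CPM for Zbtb6). Their annotated exons overlap on the same strand. Zbtb34 and Zbtb43 on chromosome 2 had 0.14 and -0.08, and Zbtb8a and Zbtb8b on chromosome 4 had 0.66 and -0.84. Besides Zbtb9, the members Zbtb5, Zbtb8a, Zbtb11, Zbtb14 and Zbtb37 share at least 10% of their exon bases with other genes.

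Among 8 BTB zinc finger genes with other symbols, 0 were called by edgeR and 1 was lower at an unadjusted p below 0.05. That gene was Bcl6, the repressor that directs germinal centre B cells and follicular helper T cells. It was at 230.1 and 277 CPM in the controls against 58.3 and 106 CPM in the KO, so both KO values lay below both controls (-1.62 ± 0.30, adjusted p = 0.0664 in edgeR's test). DESeq2 called it, at an adjusted p of 1.735e-05, and over 11 alternatives its adjusted p ran from 4.166e-13 to 0.0882. Patz1, a factor known to regulate Cd4 and Cd8 genes, had 190 and 165 CPM in the controls against 153 and 136 CPM in the KO (-0.30 ± 0.22). The list median was -0.27, beside -0.13 for the Zbtb members.

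Of 9 genes for corepressors and for CUL3, the ubiquitin ligase scaffold that BTB proteins bind, 0 were called by edgeR and 0 had an unadjusted p below 0.05. Their log2 fold changes ran from -0.29 to 0.06 with a median of -0.11. The corepressor gene Ncor1 was at 980 and 1083 CPM in the controls against 967 and 943 CPM in the KO (-0.11 ± 0.22), so both KO values lay just below both controls by less than the error.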

How the data were processed

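Bulk RNA-seq of sorted DP thymocytes gave 4 libraries, built from TRIzol RNA using Takara's SMART-seq chemistry, as the labels' protocols state. The deposited counts are whole reads per gene symbol, made by the authors from a HISAT2 alignment per the file headers. Listed in the submitters' processing notes, without roles, are mm10 and the tools HISAT2 2.2.1, edgeR 3.36.0, cutadapt 4.0 and featureCounts 2.0.8. The annotation, the strand setting and how multiply mapped reads were handled: not given in the sources used here. Groups came from the sample titles.

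The fit across genes used edgeR 4.0.16 under R 4.3.3 (filterByExpr, minimum count 10 and total 15; TMM; quasi-likelihood fit with genotype as the only term), with two-sided tests and Benjamini-Hochberg adjustment over 20389 genes. Calls needed an adjusted p below 0.05. Standard errors are the fold change over the square root of F, and 95% intervals use the moderated degrees of freedom (median 9.19). Intervals and floors cover no more than the spread and counting error of these libraries. Alternatives included DESeq2 1.42.0, other scalings and filters, a replicate block and leaving out each library. The test was also run on simulated counts with known fold changes, and the outcome of that run is not reported here. Members and gene lists were chosen with earlier results of these data known. Every member is named, and levels per library are given for those with an unadjusted p below 0.05, the 10 with the highest mean CPM and the lymphoid and methyl-CpG members. Of other lists, called genes, those at an unadjusted p below 0.05 and the 2 with the highest mean CPM are named, except 1 gene that is not reported here. The planned symbols for gamma-delta chains matched none in the files. The NK list, Ncr1 and Klrb1c, summed to 9.67 and 1.85 CPM in controls against 0.746 and 0.478 CPM in the KO. The 3 DN markers summed to 43.2 and 48.5 CPM and to 220 and 116 CPM, of which Il2ra was 9.84 and 9.03 CPM and 201 and 97.0 CPM, while Cd44 lay the other way (30.3 and 35.2 CPM, then 11.7 and 15.0 CPM). The 5 mature single-positive markers summed to 73.4 and 74.5 CPM and to 97.5 and 79.7 CPM, of which Il7r was 1.01 and 0.26 CPM and 30.6 and 21.9 CPM. RefSeq supplied promoters and gene spans (GRCm38.p6, of which mm10 is the UCSC name). Spans matched all 38 members and promoters 34.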

Additional observations from a re-analysis of the deposited data

How the results depend on the processing

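With 2 libraries per genotype, changes under 2-fold and genes under 10 CPM were poorly resolved. The absence of called members held in DESeq2, edgeR's newer quasi-likelihood setting, both other scalings, both other filters, and without control replicate 2, KO replicate 1 or KO replicate 2. The exceptions were Zbtb4 with the replicate block and Zbtb10 without control replicate 1. At a minimum of 5 CPM only 31 members were tested, and Zbtb10 was not among them. The median of the members stayed between -0.17 and -0.09 in all 11 alternatives. Over all genes, 92 calls became 947 in DESeq2, 920 without the filter, 228 at a minimum of 5 CPM, and 223 to 864 with 1 library left out. The cause was not tested.

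The replicate numbers share no stated animal or batch, and same-numbered libraries did not deviate together (correlation of deviations -0.0096). With the replicate number as a block, 1599 genes were called, among them 1 member lower, Zbtb4 at -0.92 (adjusted p = 0.00924, against 0.0739 to 0.861 in the other alternatives), with 1 member higher and 3 lower at an unadjusted p below 0.05. In the block fit Zbtb22 was at 0.055 and Zbtb45 at -0.012, the reverse of their main direction.

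Members at an unadjusted p below 0.05 numbered 1 higher and 2 lower in the newer edgeR setting, 1 higher without the filter, 4 lower at a minimum of 5 CPM, and 1 to 2 higher and 1 to 3 lower with 1 library left out, where 0 to 1 were called higher. In all, 17 members changed direction in at least 1 alternative and 21 in none of those that tested them. The newer setting put Zbtb22 at 0.072 and Zbtb3 at -0.22, library totals put Zbtb6 at 0.0225, and a minimum of 5 CPM put Zbtb45 at -0.042. With 1 library left out, log2 fold changes spanned -0.090 to 0.40 for Zbtb41, -0.0105 to 0.91 for Zbtb21, -0.60 to 0.75 for Zbtb22, -0.59 to 1.37 for Zbtb3, -0.32 to 0.23 for Zbtb43, -0.53 to 0.40 for Zbtb6 and -0.61 to 0.43 for Zbtb46. They spanned -0.0061 to 1.01 for Zbtb38, -0.32 to 0.25 for Zbtb5, -0.60 to 0.056 for Zbtb37, -0.17 to 0.94 for Zbtb11, -0.55 to 2.01 for Zbtb12, -0.35 to 0.40 for Zbtb45 and -0.49 to 0.029 for Zbtb7a. For Zbtb14 the span was -0.85 to 0.10, for Zbtb26 -0.54 to 0.99, for Zbtb48 -0.37 to 0.0018 and for Cdca7 -0.19 to 0.45. In the fits that left 1 library in a genotype, that library was assumed to vary like the other genotype.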
